A study of Homo sapiens with 8 samples.

Results

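Chromosome 20 is described here through all peaks that 4 deposited peak lists placed on it and through the RNA counts of its genes. The 4 lists held 11543 peaks on the chromosome, of 282355 in all. Of 642 chromosome 20 genes in the count files, 405 had at least 10 counts over the 4 RNA libraries together, against 14693 such genes in the whole series. Of these 405 genes, 345 passed edgeR's filter on low counts and were tested, and 341 of the tested genes could be placed on GRCh37 (hg19), 107 on the short arm 20p and 234 on the long arm 20q. The chromosome was chosen with its regional values known, so its levels and shares are given as a description with no test. At the count minimum, DHX35 and UBOX5-AS1 lay just inside with 10 counts, and MIR4326, FLJ16779, MKKS and TGM3 lay just outside with 9.

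PC9 is a human lung adenocarcinoma cell line that responds to gefitinib, an inhibitor of the EGFR kinase. PC9R cells were selected from PC9 by 1 to 2 weeks of gefitinib, and both lines were used at passages 8 to 12. Each line had 2 RNA libraries, called first and second here, 1 list of DNase I hypersensitive sites (DHS) and 1 list of peaks of histone H3 dimethylated at lysine 4 (H3K4me2). The labels give no cultures for the libraries and do not say whether PC9R is 1 clone or whether gefitinib was present at harvest, so p-values measure the spread between these libraries only, which may be technical.

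DNase I cuts where chromatin is open, chiefly at promoters and enhancers, and H3K4me2 marks both kinds of element. The long arm of chromosome 20 is often gained in epithelial cancers and carries genes such as BCL2L1, which encodes the anti-apoptotic protein BCL-XL, AURKA, a mitotic kinase, and ZNF217, a transcriptional repressor. It also holds clusters of genes for secreted epithelial proteins, among them the whey acidic protein inhibitors and the BPI fold proteins of the airway, and the short arm holds the cystatin cluster. DNA copy number was not analysed here.

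The RNA libraries held 32515891 (PC9, first), 16013058 (PC9, second), 32502455 (PC9R, first) and 16715426 counts (PC9R, second). Second-minus-first differences correlated across genes between the lines at 0.788, and the second libraries lay 0.895 higher on the log2 scale in the lowest of 4 GC classes of genes and -1.13 in the highest. Values within the first and within the second libraries are therefore given beside the fitted ones, and a second fit had a term for library number, which the labels do not make a batch. The epithelial markers summed to 12000 and 5265 CPM (counts scaled to a common library total) in PC9 and 9706 and 5386 in PC9R over 6 genes. The 4 alveolar markers summed to at most 2.28 CPM, with SFTPC at 0 in every library and NKX2-1 at 1 count in all. The 5 leukocyte markers summed to at most 0.484 CPM. The 6 fibroblast and endothelial markers summed to 45.3 and 19.8 CPM in PC9 and to 111 and 34.3 in PC9R, with COL1A1, CDH5 and PECAM1 above 3 CPM in every library and VIM at most 1.00. Their part in the results was not tested. In bulk samples, fewer cells of a type and less RNA per cell cannot be told apart.

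RNA of the long arm was higher in PC9R, and RNA of the short arm was not shifted as a whole. The median log2 fold change (PC9R over PC9) was 0.54 over the 234 tested genes of 20q, with 0.47 within the first libraries and 0.58 within the second. On 20p the median over 107 genes was 0.04, with -0.12 and 0.17. Over all 12660 genes tested it was -0.01. Of the 20q genes 195 (83.3%) had a fold change above 0, against 60 (56.1%) on 20p and 49.4% of all genes. Among 23 chromosomes, chromosome 20 had the highest median at 0.39, followed by chromosome 17 at 0.31 and chromosome 9 at 0.25. The size of the shift depended on single libraries. Without the first PC9 library the chromosome's median was 0.74 and that of 20q 0.93, at an all-gene median of 0.11, and without the first PC9R library the chromosome's was 0.25 and that of 20q 0.40, at an all-gene median of -0.09. In every one of these fits the 20q median lay above the all-gene median.

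**Figure D1:**
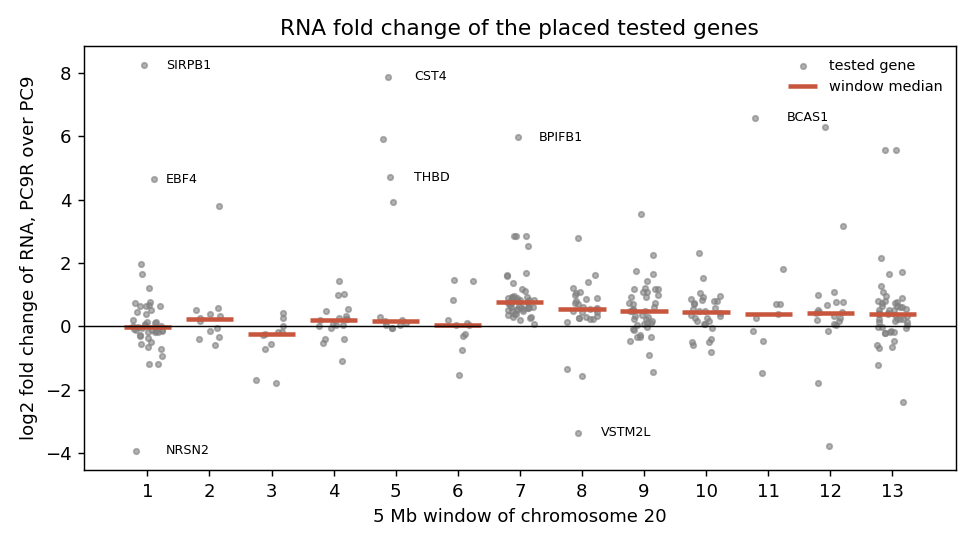
Each grey point is 1 of the 341 placed tested genes of chromosome 20, with its RNA log2 fold change (PC9R over PC9) on the vertical axis, by 5 Mb window from the end of the short arm (1) to the end of the long arm (13), spread sideways at random. Red bars are window medians. The medians of windows 7 to 13 lie between 0.38 and 0.77, those of windows 1 to 6 between -0.23 and 0.23.

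By windows of 5 Mb, counted from the start of the short arm, the step lay at the centromere, which the reference shows as a gap at chr20:26319570-29419569 within window 6. Windows 1 to 6 had medians of -0.01, 0.23, -0.23, 0.20, 0.18 and 0.03. Windows 7 to 13 had medians of 0.77, 0.55, 0.48, 0.45, 0.38, 0.43 and 0.38. All 50 tested genes of window 7 (chr20:30000001-35000000) had a log2 fold change above 0, from 0.07 for ZNF341 to 5.97 for BPIFB1. Its median ranked 11th among the 523 windows of the genome with at least 5 tested genes. Window 7 was not the highest window of the long arm in every fit: without the first PC9 library it was window 13 and without the first PC9R library window 8. The lowest window median of the long arm fell from 0.38 to 0.05 without the second PC9 library (all-gene median 0.06) and to -0.14 without the first PC9R library (all-gene median -0.09), and in these fits 6 of the 7 windows lay above the all-gene median.

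No gene of chromosome 20 was called in the edgeR fit. Over all genes 32 of 12660 (0.253%) passed at an adjusted p under 0.05, 0.190% higher and 0.0632% lower in PC9R, and 0 of the 345 on chromosome 20. At an unadjusted p under 0.05 there were 32 on chromosome 20 (9.28%), against 921 of all genes (7.27%). DESeq2 called 20 of the 345 (5.80%), where it called 3.01% of all genes. With limma-voom 3 passed (0.870%), against 0.577% of all genes. With the library-number term 96 passed, 82 higher and 14 lower in PC9R, where 20.8% of all genes passed, 11.2% higher and 9.57% lower. Of the 82, 68 were placed on 20q and 14 on 20p. The CPM of the 2 lines did not overlap, with both PC9R libraries above both PC9 libraries, for 116 of the 345 genes (background 16.9%), and lay the other way for 25 (background 14.9%). On 20q these were 95 and 11 of 234, and on 20p 20 and 13 of 107. The 60 genes that did not pass the filter on low counts were higher in PC9R within both library pairs in 26 cases and lower in 12, where 36.6% and 37.4% of all tested genes were. Tested genes had passed that filter, so they are not a like background, and a member could reach 10 counts through 1 line alone.

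The 5 most abundant tested genes of window 7, by mean CPM over both lines, were looked at one by one. TPX2, which activates AURKA on the spindle, was at 447 and 565 CPM in PC9 and 379 and 1135 in PC9R. MAPRE1, which binds growing microtubule ends, was at 332 and 680 CPM in PC9 and 380 and 935 in PC9R. In both the lines overlapped, and neither passed with the library-number term (edgeR adjusted p = 0.374 and 0.231). NORAD, a long noncoding RNA, was at 315 and 536 CPM in PC9 and 727 and 736 in PC9R. CHMP4B, a subunit of the membrane-scission complex ESCRT-III, was at 418 and 309 CPM in PC9 and 697 and 553 in PC9R. KIF3B, a motor subunit of kinesin-2, was at 219 and 294 CPM in PC9 and 435 and 465 in PC9R. In these 3 the lines did not overlap, and each passed with that term (edgeR adjusted p = 0.0318, 0.0169 and 0.0179). The 5 were picked after their values were seen. BCL2L1, in the same window, had 32.1 and 31.0 CPM in PC9 and 65.2 and 53.9 in PC9R. Its log2 fold change was 0.92 ± 0.55 (SE), with an edgeR adjusted p of 0.917, and it was 1.88-fold higher with the library-number term (adjusted p = 0.0196). Its departure from the window's other genes was 0.16, so it moved with its neighbours.

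Peaks were also more numerous on the chromosome in PC9R, in a list that was longer everywhere. The DHS lists held 639 chromosome 20 peaks in PC9, of 19648, and 3473 in PC9R, of 59600. As shares these are 3.25% (95% exact binomial interval 3.01 to 3.51) and 5.83% (5.64 to 6.02), a ratio of 1.79 (1.65 to 1.95). Among 23 chromosomes this ratio was second to that of chromosome 9, at 2.31. The H3K4me2 lists held 2668 and 4763 peaks on the chromosome, 3.13% and 4.04% of the lists, and the ratio of 1.29 (1.23 to 1.35) was the highest of the 23. With 1 library per assay and line there is no test between the lines, the intervals cover counting error only, and a line cannot be told apart from its library.

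**Figure D2:**
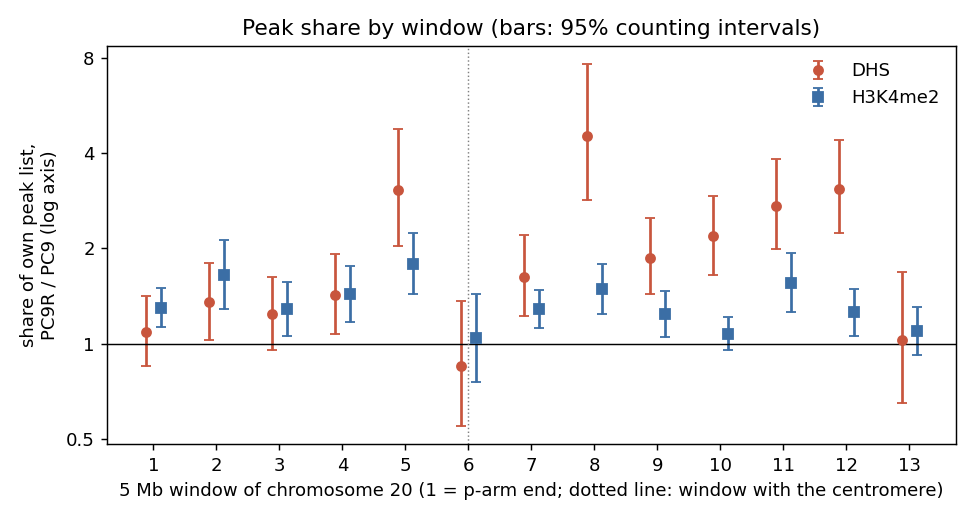
For each 5 Mb window of chromosome 20, points give the window's share of the PC9R peak list over its share of the PC9 list on a log axis, red circles for DHS and blue squares for H3K4me2, with 95% counting intervals. The line at 1 stands for equal shares, and the DHS ratio runs from 0.853 in window 6 to 4.53 in window 8.

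The arms differed in the DHS ratio, which was higher on 20q, and less so in the H3K4me2 ratio, which was higher on 20p. On 20q there were 316 DHS peaks in PC9 and 2112 in PC9R, a share ratio of 2.20 (1.96 to 2.49). On 20p there were 323 and 1361, a ratio of 1.39 (1.23 to 1.57), and these intervals do not overlap. For H3K4me2 the ratio was 1.24 (1.17 to 1.31) on 20q and 1.40 (1.29 to 1.52) on 20p, where the intervals overlap. Window 8 had the highest DHS ratio, with 19 peaks in PC9 and 261 in PC9R (4.53, 2.84 to 7.64). Windows 12 (3.09), 5 (3.06) and 11 (2.73) followed. Window 5 lies on the short arm and had a median RNA fold change of 0.18, while window 13, at the end of the long arm, had a DHS ratio of 1.03 (0.648 to 1.68) and an RNA median of 0.38. Window by window, the peak ratio and the RNA median thus did not rank alike.

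Few PC9R DHS peaks were found in PC9, whose shorter list bounds the share that could be. With an overlap of at least 1 bp, 333 of the 639 PC9 DHS peaks (52.1%) met one of PC9R, while 334 of the 3473 in PC9R (9.62%) met one of PC9. For H3K4me2 the shares were 76.5% of the PC9 and 47.8% of the PC9R peaks. With equal numbers of the highest-scored peaks they were 35.8% (PC9) and 19.0% (PC9R) for DHS, and 72.0% and 58.8% for H3K4me2. Of the PC9R DHS peaks found in both lines, 48.2% lay at least in part within 1 kb of the start of a protein-coding gene. On an H3K4me2 peak of the line lay 71.0% of them. Of those found in PC9R only, these shares were 7.39% and 19.3%, while 48.7% were intergenic and 32.8% intronic. Only protein-coding genes were used for this, so intergenic peaks can lie in noncoding genes. The DHS peaks found in PC9 only lay on H3K4me2 in 42.2% of cases, with 61.4% on 20q and 27.6% on 20p.

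The sequences of the highest-scored DHS peaks found in 1 line are shown because those of PC9 lay at promoters and those of PC9R did not. The score is the authors', of unstated scale. All are GRCh37 plus-strand sequences, 5′ to 3′, in lower case, with matches on either strand to 6 motifs in capitals. The motif of AP-1 was searched as TGANTCA and that of TEAD factors as GGAATG. The FOXA motif was searched as TGTTTAC, the motif of SP factors (GC box) as GGGCGG, the motif of NF-Y as CCAAT and the E-box as CACGTG. Matches of different motifs may overlap. The PC9-only peaks lie at chr20:3185094-3185293, in DDRGK1 134 bp from its start (score 24.2, shown to position 3185273, before an annotated UTR), and at chr20:3800937-3801117, 167 bp from the start of AP5S1 (score 19.6). Both overlap an H3K4me2 peak of PC9. The starts of DDRGK1 and AP5S1 each also had a DHS peak of PC9R within 1 kb, which did not overlap the peak shown.
PC9-only, DDRGK1: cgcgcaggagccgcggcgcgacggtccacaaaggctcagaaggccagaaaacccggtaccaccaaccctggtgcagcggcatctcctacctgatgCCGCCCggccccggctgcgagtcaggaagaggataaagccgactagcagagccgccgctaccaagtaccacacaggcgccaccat
PC9-only, AP5S1: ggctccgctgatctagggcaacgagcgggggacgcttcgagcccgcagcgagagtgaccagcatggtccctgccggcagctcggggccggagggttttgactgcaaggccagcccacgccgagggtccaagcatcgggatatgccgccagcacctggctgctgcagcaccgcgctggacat

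The PC9R-only peaks lie at chr20:29811818-29812115, intergenic and 33500 bp from the nearest coding start, that of the beta-defensin gene DEFB115 (score 24.9), and at chr20:37163464-37163743, within an annotated exon in RALGAPB and 46236 bp from the nearest coding start (score 19.5). Neither overlaps an H3K4me2 peak of PC9R. The first holds 25 GGAAT units on the plus strand, the repeat unit of a human satellite, in 298 bases, and its 20 GGAATG matches are part of that repeat.
PC9R-only, near DEFB115: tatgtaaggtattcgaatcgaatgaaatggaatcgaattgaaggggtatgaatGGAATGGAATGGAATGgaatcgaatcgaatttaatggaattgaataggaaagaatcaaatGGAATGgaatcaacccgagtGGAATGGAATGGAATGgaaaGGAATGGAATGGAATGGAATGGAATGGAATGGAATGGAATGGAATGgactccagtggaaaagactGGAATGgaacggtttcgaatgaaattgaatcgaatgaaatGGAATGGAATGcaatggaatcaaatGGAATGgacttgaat
PC9R-only, RALGAPB: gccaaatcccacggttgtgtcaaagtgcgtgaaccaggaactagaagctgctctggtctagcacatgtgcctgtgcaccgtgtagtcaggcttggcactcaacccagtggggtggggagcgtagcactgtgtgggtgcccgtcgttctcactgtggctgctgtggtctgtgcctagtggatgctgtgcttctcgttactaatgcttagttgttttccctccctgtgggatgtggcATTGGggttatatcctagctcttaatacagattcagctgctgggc

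Repeats of this kind were rare. At least 10 GGAAT units on 1 strand were found in the 300 bases at the centre of 5 of the 3139 PC9R-only DHS peaks (0.159%), all 5 on 20q. They were found at 0 of the 306 PC9-only DHS peaks and in 0.0514% of all 300-base tiles of the chromosome. The highest-scored peak in both DHS lists was the same one, at chr20:26189791-26190358 in PC9 (score 142) and chr20:26189796-26190386 in PC9R (score 111). It lies on 20p, before the centromere gap, and has no H3K4me2 peak in either line. For H3K4me2 the highest-scored shared peak lay at the start of RAD21L1, at chr20:1206632-1207800 in PC9 and chr20:1206637-1207550 in PC9R. The highest-scored H3K4me2 peak found in PC9 only lay in ZBTB46, 583 bp from its start (chr20:62462793-62463607, score 108). The highest-scored of PC9R only were intergenic, at chr20:39591340-39591840 (score 82.7) and chr20:42952948-42953552 (score 64.6).

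AP-1, the dimer of FOS and JUN proteins that binds many enhancers, had its motif more often at DHS peaks found in PC9 only. The search covered 300 bases at each peak centre. Median DHS peak widths were 199 bp in PC9 and 213 bp in PC9R, so a match can lie just outside a DHS peak. The H3K4me2 medians were 553 and 395 bp. TGANTCA was found at 62 of 306 PC9-only DHS peaks (20.3%, 15.9 to 25.2), at 246 of 3139 PC9R-only peaks (7.84%, 6.92 to 8.83) and at 21 of 333 PC9 peaks found in both lines (6.31%, 3.95 to 9.48). All 300-base tiles of the chromosome held it in 9.20%. On 20q it was found in 33 of 132 PC9-only peaks (interval 17.9% to 33.3%) and on 20p in 29 of 174 (16.7%, 11.5 to 23.1), and the PC9R-only shares were 7.90% and 7.74%. In H3K4me2 peaks the shares were 12.1% of PC9-only and 15.2% of PC9R-only peaks, with intervals that overlap. The GC box, a site of promoter factors, was in 37.5% of PC9 DHS peaks found in both lines, 17.3% of PC9-only and 15.5% of PC9R-only DHS peaks, and in 5.67% of tiles. Median GC content was 51.7% in PC9-only, 55.3% in PC9R-only and 59.7% in PC9 DHS peaks of both lines. A match is a description and not a bound site, and peaks of 1 list share their library.

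**Figure D3:**
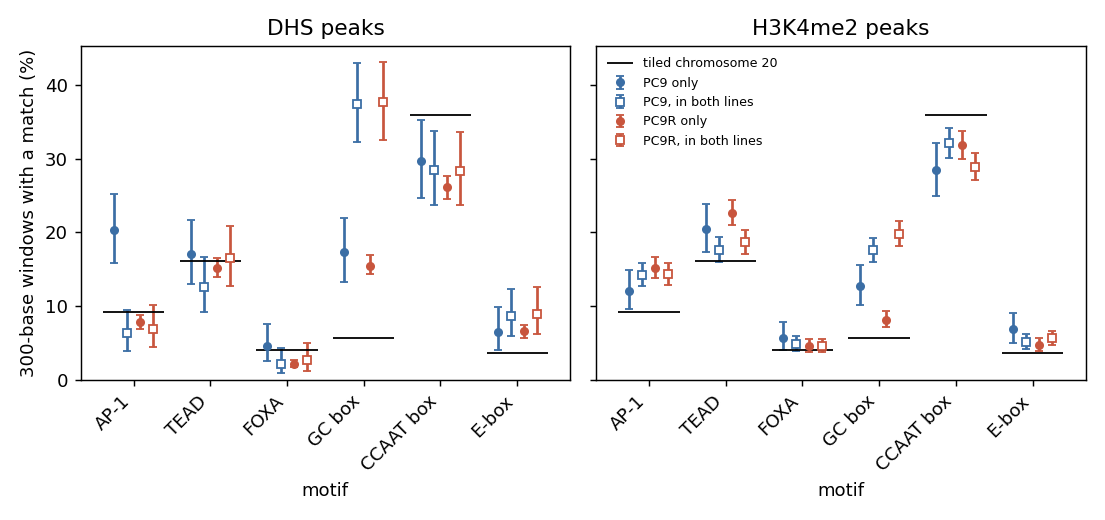
Points give the percent of peaks with a match to each of 6 motifs in the 300 bases at their centre, with 95% exact binomial intervals. DHS peaks, most of them narrower than this, are on the left and H3K4me2 peaks on the right. Filled circles are peaks of 1 line only and open squares peaks found in both lines, blue for PC9 and red for PC9R, and black lines are all 300-base tiles of the chromosome. The AP-1 share of PC9-only DHS peaks, 20.3%, lies above those of the other 3 DHS classes.

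The highest-scored PC9-only DHS peaks of each arm with an AP-1 match, under 300 bases and outside UTRs, are shown with the same capitals and were chosen after these shares were seen. The first, at chr20:1396508-1396787 on 20p, is intergenic, 22950 bp from the start of FKBP1A, and has 2 AP-1 matches. The second, at chr20:33113747-33113983 on 20q, lies in DYNLRB1 and has 1.
PC9-only with AP-1, 20p: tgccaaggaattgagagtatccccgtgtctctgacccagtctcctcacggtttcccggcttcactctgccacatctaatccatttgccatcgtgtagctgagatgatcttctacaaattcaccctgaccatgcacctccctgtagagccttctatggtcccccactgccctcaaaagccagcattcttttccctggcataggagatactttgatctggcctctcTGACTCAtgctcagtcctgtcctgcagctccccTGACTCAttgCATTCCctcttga
PC9-only with AP-1, 20q: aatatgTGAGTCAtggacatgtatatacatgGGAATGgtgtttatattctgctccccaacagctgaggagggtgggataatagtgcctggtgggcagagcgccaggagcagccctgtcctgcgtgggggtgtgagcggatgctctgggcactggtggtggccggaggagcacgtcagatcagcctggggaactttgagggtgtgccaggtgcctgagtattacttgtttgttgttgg

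Some genes departed from their segment. A gene was taken to depart when its log2 fold change differed from the median of the other tested genes of its window by at least 1, in the same direction in the fit and within both library pairs, at 10 CPM or more in the higher line. Above their window were 10 genes (2.93% of 341) and below it 6 (1.76%), where 2.36% and 1.39% of the 11982 genes in such windows of the genome did, so the shares are near the background. These genes were chosen by this contrast, and their p-values are printed as a description. None passed the edgeR fit, while all 16 passed with the library-number term.

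**Figure D4:**
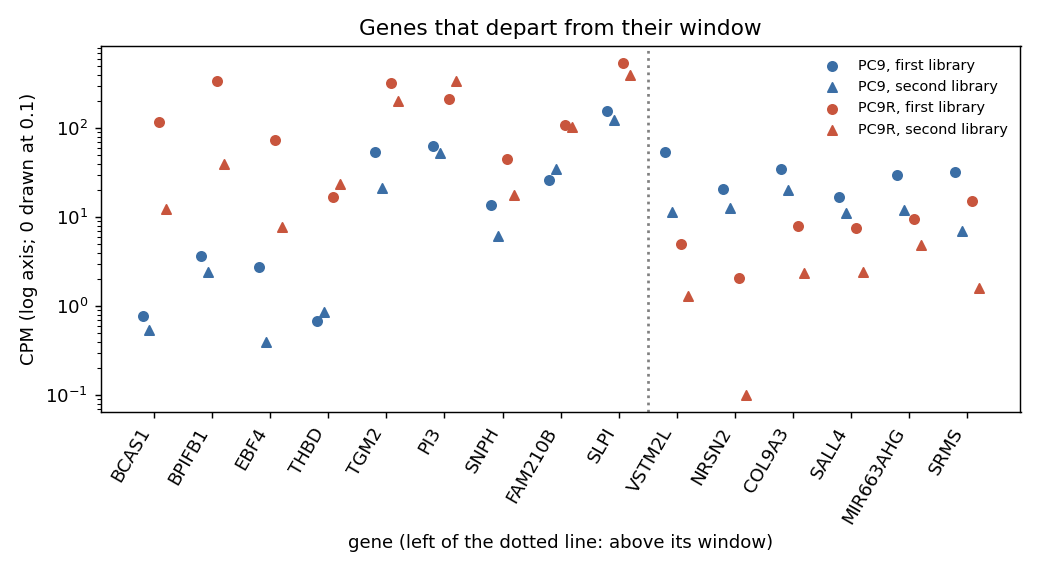
CPM on a log axis of 15 of the 16 genes of chromosome 20 that departed from their 5 Mb window, in each of the 4 RNA libraries, PC9 in blue and PC9R in red, first libraries as circles and second as triangles. Left of the dotted line are 9 genes above their window, right of it the 6 below, where NRSN2 at 0 CPM in the second PC9R library is drawn at 0.1.

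BPIFB1 (chr20:31861286-31897677), a BPI fold protein secreted by airway epithelium, was at 3.64 and 2.40 CPM in PC9 and 341 and 39.7 CPM in PC9R. Both PC9R libraries were above PC9 and differed widely from each other, and the log2 fold change was 5.97 ± 1.11 (edgeR adjusted p = 0.0792, and 0.000629 with the library-number term). Its start had an H3K4me2 peak in both lines and no DHS peak in either. Within 10 kb of the gene there were 14 H3K4me2 peaks in PC9R and 3 in PC9, where the whole window had 573 and 322, a ratio of 1.78. PI3 (chr20:43803543-43805185), which encodes the elastase inhibitor elafin, was at 63.8 and 52.5 CPM in PC9 and 214 and 337 in PC9R. SLPI, a related antiprotease of the same cluster, was at 157 and 123 CPM in PC9 and 546 and 400 in PC9R. Neither gene overlapped between the lines, and both had a DHS peak at their start in both lines. WFDC2, another inhibitor of this cluster, was 2.44-fold higher with the library-number term (edgeR adjusted p = 0.00993) and did not meet the rule for departure.

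THBD (chr20:23026270-23030309) encodes thrombomodulin, a surface receptor for thrombin. It was at 0.690 and 0.868 CPM in PC9 and 16.7 and 23.7 in PC9R. The lines were far apart and the libraries of each close, with a log2 fold change of 4.70 ± 0.71 and the lowest edgeR adjusted p of the departing genes, 0.0509 (0.000109 with the library-number term). TGM2 (chr20:36755787-36794980), a protein-crosslinking transglutaminase, was at 54.3 and 21.2 CPM in PC9 and 319 and 202 in PC9R, 7.42-fold higher with that term (edgeR adjusted p = 0.000236). It had no DHS peak at its start in either line, while the start of THBD had one in PC9R only.

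BCAS1 (chr20:52553316-52687133), named for its place in a region amplified in breast cancer, showed the largest departure among the genes that met the rule, 6.27. It was at 0.784 and 0.534 CPM in PC9 and 118 and 12.4 in PC9R, with a log2 fold change of 6.59 ± 1.20 (edgeR adjusted p = 0.0782, and 0.000279 with the library-number term). Within 10 kb of the gene there were 18 DHS peaks in PC9R and 4 in PC9, a smaller ratio than the 8.28 of its whole window, and its start had a DHS peak in PC9R only. ZNF217, in the same window, was at 169 and 239 CPM in PC9 and 291 and 240 in PC9R, with a log2 fold change of 0.38 ± 0.51, near that of its neighbours (departure -0.11). The transcription factor gene EBF4 on 20p was at 2.76 and 0.400 CPM in PC9 and 73.3 and 7.85 in PC9R. In SNPH, syntaphilin, which anchors mitochondria, the values were 13.7 and 6.14 CPM in PC9 and 44.5 and 17.8 in PC9R. FAM210B, a mitochondrial protein, was at 26.2 and 34.7 CPM in PC9 and 109 and 104 in PC9R.

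The size of these departures rested in part on single libraries, and most named values moved when 1 was left out. Without the first PC9R library the log2 fold change was 4.21 for BCAS1, 3.71 for BPIFB1, 2.27 for EBF4 and 0.84 for SNPH. Without the second PC9R library it was 7.43 for BCAS1, 6.79 for BPIFB1 and 5.48 for EBF4. Without the first PC9 library it was 6.63 for EBF4, 3.61 for TGM2 and 2.33 for SNPH, and without the second 3.84 for EBF4. THBD stayed between 4.41 and 4.93 and PI3 between 1.86 and 2.54 in these 4 fits.

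Below their window lay genes of varied function. VSTM2L (chr20:36531513-36573752), a secreted immunoglobulin-domain protein, was at 54.0 and 11.3 CPM in PC9 and 4.98 and 1.31 in PC9R, 9.92-fold lower with the library-number term (edgeR adjusted p = 0.000217). NRSN2, a neuronal membrane protein, was at 20.5 and 12.7 CPM in PC9 and 2.08 and 0 in PC9R. COL9A3, a chain of collagen IX, was at 34.9 and 20.2 CPM in PC9 and 8.06 and 2.38 in PC9R, and had an H3K4me2 peak at its start in PC9 only. In these genes both PC9R libraries lay below both PC9 libraries. SALL4, a transcription factor of embryonic stem cells, was at 16.7 and 11.2 CPM in PC9 and 7.52 and 2.44 in PC9R. MIR663AHG, the host RNA of a microRNA, was at 29.7 and 12.2 CPM in PC9 and 9.48 and 4.93 in PC9R. SRMS, a SRC-related kinase, was at 32.2 and 7.01 CPM in PC9 and 15.1 and 1.61 in PC9R, so its lines overlapped. Its fold change was -1.22 on the log2 scale and turned to 0.25 without the first PC9 library. It was -1.97 without the second PC9 library, -3.61 without the first PC9R library and -0.38 without the second. VSTM2L, at -3.36, was -1.84 without the first PC9 library, -4.12 without the second, -4.64 without the first PC9R library and -2.72 without the second. COL9A3, at -2.39, was -3.53 without the first PC9R library and -1.79 without the second. SALL4, at -1.48, was -2.51 without the first PC9R library, and MIR663AHG, at -1.54, was -0.77 without the first PC9 library. NRSN2, at -3.93, was -3.01 without the second PC9R library, and without the first its only PC9R library is at 0 counts, which gives no fold. SRMS had H3K4me2 peaks at its start in PC9 and none in PC9R, and a 3087 bp H3K4me2 peak in the gene (chr20:62171905-62174991, score 84.9) was among the 2 highest-scored of those found in PC9 only.

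The salivary cystatins CST1, CST2 and CST4 rose with the library-number term from almost no counts. They are secreted inhibitors of cysteine proteases and lie side by side in window 5 of the short arm. CST2 had 2 and 0 counts in PC9 and 128 and 29 in PC9R, a ratio of 77.4 (95% exact interval 21.1 to 645). CST1 had 3 and 0 counts in PC9 and 42 and 12 in PC9R, a ratio of 17.7 (5.76 to 88.7). CST4 had 0 counts in both PC9 libraries and 61 and 10 in PC9R, at least 23.3-fold higher against a floor of 3 counts over the 2 PC9 libraries. These intervals cover counting error only, not the spread between libraries, and reads are not independent molecules. The levels stayed under 4 CPM. CST3, the widely expressed cystatin C of the same cluster, was at 405 and 151 CPM in PC9 and 487 and 191 in PC9R, with a log2 fold change of 0.29 ± 0.68. CST1 and CST4 had H3K4me2 peaks at their start in PC9R and none in PC9, and CST2 and CST4 a DHS peak in PC9R and none in PC9. The 3 genes are close copies, so reads can be shared between them and the single values are uncertain.

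The promoters of CST4 and CST2 are shown to make that likeness visible, 250 bases before the start of the canonical transcript, 5′ to 3′ on the minus strand of GRCh37 (chr20:23669676-23669925 and chr20:23807367-23807616). Capitals mark the 21 of 250 positions at which the promoters of CST1, CST2 and CST4 are not all the same. CST1 and CST4 share 97.6% of positions, and CST2 shares 92.4% with CST1 and 92.8% with CST4.
CST4 promoter: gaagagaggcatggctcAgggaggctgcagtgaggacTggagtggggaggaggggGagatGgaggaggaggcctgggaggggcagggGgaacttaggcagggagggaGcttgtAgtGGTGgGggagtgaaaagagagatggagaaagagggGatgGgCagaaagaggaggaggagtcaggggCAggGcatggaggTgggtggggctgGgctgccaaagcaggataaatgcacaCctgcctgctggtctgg
CST2 promoter: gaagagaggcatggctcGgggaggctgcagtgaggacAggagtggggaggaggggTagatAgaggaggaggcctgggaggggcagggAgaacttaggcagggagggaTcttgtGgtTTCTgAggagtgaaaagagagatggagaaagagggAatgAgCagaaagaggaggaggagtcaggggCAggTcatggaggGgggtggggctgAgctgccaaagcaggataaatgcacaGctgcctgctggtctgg

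Genes of the chromosome were also read by function, in 9 lists. No member of any list passed the edgeR fit, so the counts that follow are those with the library-number term, beside 11.2% higher and 9.57% lower over all genes, and 23.8% higher and 4.06% lower over the 345 tested genes of chromosome 20 itself. Of 11 tested cell cycle genes 0 were higher and 0 lower, with a median log2 fold change of 0.26. TPX2, of window 7, was the most abundant. AURKA, the mitotic kinase, counted over 6 accessions, was at 0.972 and 0.400 CPM in PC9 and 0.911 and 1.43 in PC9R. PCNA, the sliding clamp of DNA polymerase, was at 4.61 and 0.934 CPM in PC9 and 4.16 and 0.832 in PC9R. Genes with more than 1 accession, 132 of the 345 tested, were summed over their accessions. In the whole series 8198 of 23371 genes were of this kind. Their share of the library total was 7.07% (first) and 6.86% (second) in PC9. In PC9R it was 6.93% and 6.74%. The low CPM of AURKA and PCNA are therefore not taken as low RNA levels. The part of counting by accession in these values was not tested. CENPB, a centromere protein, had means of 466 ± 230 CPM in PC9 and 443 ± 93.0 in PC9R (SD, n = 2).

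Of 16 tested survival and signalling genes, 5 were higher and 0 lower, with a median of 0.47: BCL2L1, SDC4, CD40, BMP2 and BMP7. SDC4, the heparan sulfate proteoglycan syndecan-4, was the most abundant of the list, with a mean of 470 ± 27.5 CPM (SD, n = 2) in PC9 and 898 ± 19.5 in PC9R. TRIB3, a stress-induced pseudokinase, had a mean of 317 CPM in both lines. BMP2, a bone morphogenetic protein ligand, was at 0.408 and 0.667 CPM in PC9 and 6.69 and 8.08 in PC9R. BMP7, a related ligand, had 1 and 0 counts in PC9 and 84 and 26 in PC9R, and had H3K4me2 peaks at its start in PC9R and none in PC9. SRC, the kinase, was at 5.14 and 1.87 CPM in PC9 and 6.78 and 3.80 in PC9R, and JAG1, a Notch ligand on 20p, at 149 and 299 CPM in PC9 and 206 and 395 in PC9R. Neither passed with the term (edgeR adjusted p = 0.163 and 0.123).

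Of 22 tested transcription and chromatin genes 7 were higher, among them CHD6, ZHX3, NCOA6, TFAP2C, ID1 and SOX18, and 2 lower, SALL4 and SOX12, with a median of 0.46. CHD6, a chromatin remodeller, had a mean of 113 ± 1.52 CPM in PC9 and 254 ± 54.9 in PC9R (SD, n = 2). The most abundant members, the DNA topoisomerase gene TOP1 and the transcription factor gene CEBPB, had log2 fold changes of 0.14 ± 0.56 and 0.06 ± 0.65. ASXL1, a Polycomb-associated protein, was at 187 and 161 CPM in PC9 and 258 and 249 in PC9R and did not pass (edgeR adjusted p = 0.0695 with the term). Of the 8 tested antiprotease genes, whey acidic protein inhibitors and cystatins, 6 were higher and 0 lower, with a median of 2.00. The 6 are SLPI, PI3, WFDC2, CST1, CST2 and CST4, and the last 3 are at low counts. In the BPI fold and beta-defensin list BPIFB1 was the only tested gene.

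Of 16 tested genes of the lysosomal, secretory and vesicle traffic list 4 were higher and 0 lower, with a median of 0.46: ARFGEF2, KIF16B, SNPH and MMP24. MMP24 is a membrane-type matrix metalloproteinase and not itself a traffic gene. ARFGEF2, an exchange factor for ARF proteins, had means of 239 ± 79.3 CPM in PC9 and 417 ± 78.8 in PC9R (SD, n = 2). CTSZ, the lysosomal protease cathepsin Z, had a log2 fold change of 0.42 ± 0.51. Of 12 adhesion and matrix genes 2 were higher, TGM2 and THBD, and 1 lower, COL9A3, with a median of 0.33. LAMA5, a laminin chain, and FERMT1, an integrin activator, had log2 fold changes of 0.42 ± 0.75 and 0.18 ± 0.64. Of 17 RNA, translation and proteasome genes 2 were higher and 0 lower, with a median of 0.05: EEF1A2, a translation elongation factor, and RBM39. RBM39 was counted over 7 accessions at means of 0.131 CPM in PC9 and 0.869 in PC9R. The limit stated for AURKA and PCNA holds for these low values too. PSMA7, a proteasome subunit, had a log2 fold change of 0.15 ± 0.47. Of 16 tested genes of the metabolism list 5 were higher, GSS, SAMHD1, SDCBP2, SLC2A4RG and SLC52A3, and 1 lower, IDH3B, with a median of 0.55. SDCBP2 and SLC2A4RG are in this list but do not encode metabolic enzymes or transporters. PYGB, brain-type glycogen phosphorylase, had a log2 fold change of -0.31 ± 0.51. GSS, glutathione synthetase, had means of 158 ± 32.1 CPM in PC9 and 247 ± 21.7 in PC9R (SD, n = 2).

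Promoter peaks and RNA were compared by arm. With the library-number term 11.2% of all genes tested were higher and 9.57% lower. Of the 234 tested 20q genes 68 were higher and 6 lower, and the counts by class stand beside these. On 20q the 51 tested genes with a DHS peak within 1 kb of the start in PC9R only had a median log2 fold change of 0.70, and 21 of them were higher and 3 lower with the library-number term. The 85 with one in both lines had 0.54, with 22 higher and 0 lower, the 85 with one in neither 0.45, with 24 and 3, and the 13 with one in PC9 only 0.51. On 20p the medians were 0.21 over 25 genes with a PC9R-only peak and 0.03 over 57 with a peak in both, and 0.22 over the 22 with a peak in neither. The classes on 20q were all above the all-gene median, also where no promoter DHS peak was listed. With H3K4me2, 306 of the 341 genes had a promoter peak in both lines (median 0.40), 7 in PC9R only (0.50) and 5 in PC9 only (-0.01). On 20q the median was 0.55 over the 207 genes with a peak in both lines. It was lower, at 0.27, over the 5 on 20q with one in PC9R only, of which 1 was higher with the library-number term. The 5 with one in PC9 only all lay on 20q. Of these, 2 were lower with that term, COL9A3 and SRMS, and 0 higher.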

How the data were processed

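There was 1 peak list per DHS or H3K4me2 library, on hg19 per the submitters' processing notes, and the authors' score of each peak has no stated scale. The RNA files held deposited raw counts per RefSeq accession. The notes name MACS2, TopHat, HTSeq and DESeq with no version or role. Counts were summed per gene by symbol (41552 of 42811 accessions matched, the others kept alone). Genes were placed by the start of the canonical transcript in GENCODE on GRCh37. Members and lists were chosen with earlier results of these data known.

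All 12660 genes passing filterByExpr were tested with edgeR 4.0.16 (R 4.3.3, quasi-likelihood F test, TMM, no block, Benjamini-Hochberg over all genes, threshold 0.05). A fit with a term for library number stands beside it. The first and second libraries were treated so because of their depth and GC gradient; the labels do not pair them. CPM use TMM-scaled totals, and within-pair log2 values a prior count of 2. The SE of a log2 fold change is its size divided by the square root of the F statistic, not a separate estimate. Window medians, departures and motif matches carry no test. Lists were compared as shares with exact binomial intervals, and peaks overlapped with bedtools 2.31.1 at 1 bp or more. The fits were tested on simulated data. The fit was repeated with RLE or upper quartile factors, with a stricter or without any count filter, with each library left out, and with DESeq2 1.42.0, limma-voom, other windows, genes of 1 accession and stricter overlaps or scores. Named were all calls, the departing genes (the 8 largest per direction by rule, the remaining 2 added), per list the 2 most abundant tested members and members passing with the term, 8 fixed genes of known function, and the highest-scored peaks. Some genes and sequences that these rules select are not reported here.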

Additional observations from a re-analysis of the deposited data

How the results depend on the processing

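The direction of the 20q median was the same in all 11 other settings tried, while counts of calls depended on the model. Over all genes 32 were called, 0 with upper quartile scaling (919 at an unadjusted p under 0.05), 0 with the stricter filter (431), 440 with no filter, 381 with DESeq2, 73 with limma-voom and 83 to 254 when 1 library was left out, where the lone library of a line is assumed to vary like the others. On chromosome 20 the count was 0, and 1 with RLE size factors, 21 with no filter, 20 with DESeq2, 3 with limma-voom and 3 to 12 with 1 library left out. With the replicate block 2631 genes passed over all and 96 on chromosome 20, while the replicate block plus GC correction gave 2644 and 98. As shares these were 20.8% and 27.8%, and 20.9% and 28.4%. Shares on chromosome 20 were 0.290% with RLE size factors (0.324% of all genes) and 5.19% with no filter (2.47%). They were 5.80% with DESeq2 (3.01%) and 0.870% with limma-voom (0.577%). The labels do not pair the libraries, although depth and GC gradient went with the library number. Leaving out 1 library gave medians of 0.25 to 0.74 for the chromosome and 0.40 to 0.93 for 20q, and 16 to 26 departing genes. The median over the 13 windows (0.38) was 0.34 to 0.48 in these fits, and the lowest window of the long arm -0.14 to 0.35. SRMS turned to 0.25 without the first PC9 library and reached -3.61 without the first PC9R library. With the 50% of peaks with the highest scores, the DHS share ratio was 2.03 for the chromosome and 1.69 for 20p. The share of PC9 DHS peaks found in both lines was 32.7% with a reciprocal overlap of 50% and 35.8% with equal numbers of peaks, and that of PC9R DHS peaks 6.02%, 19.0% and, with the highest scores, 8.16%. For H3K4me2 these shares were 44.9%, 72.0% and 83.7% in PC9 and 25.2%, 58.8% and 52.4% in PC9R. The cause of these changes was not tested beyond the smaller number of genes, libraries or peaks. Depth limits the low genes, and 1 library per peak list leaves the line and the library inseparable.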

Other observations

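Other genes of the chromosome were near 0 in PC9 and counted in PC9R. SIRPB1, a signal-regulatory receptor of myeloid cells on 20p, had 0 counts in both PC9 libraries and 47 and 29 in PC9R. HAR1A and HAR1B are overlapping noncoding RNAs on opposite strands. Summed over both libraries of a line, HAR1A had 2 counts in PC9 and 129 in PC9R, and HAR1B had 1 and 76. Without a stated strand setting the reads of HAR1A and HAR1B cannot be told apart. CHGB, a protein of secretory granules, had 2 and 0 counts in PC9 and 17 and 6 in PC9R, a ratio of 11.3 (95% exact interval 2.80 to 99.2, for counting error only). BPIFA1, a secreted airway protein of the BPI fold cluster, had 0 counts in both PC9 libraries, 21 in the first PC9R library and 0 in the second. SYCP2, a protein of the meiotic synaptonemal complex, was at 0.659 and 0.734 CPM in PC9 and 6.69 and 5.94 in PC9R, with no overlap between the lines. In the other direction, APCDD1L was at 6.18 and 2.47 CPM in PC9 and 0.513 and 0.0594 in PC9R, and PLCB1, a phospholipase, had 12 counts in PC9 and 2 in PC9R. These genes were chosen after their values were seen.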
